A study of Drosophila melanogaster with 12 samples.

Results

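Of the 21991 m6A peaks that were called in Mettl16 1-9 mutant males, 238 were annotated to an intron of a gene (1.08%), and they fell in 157 host genes. A further 13 of the 3088 rows in the comparison of m6A enrichment between mutant and control carried the same annotation. Both sets were chosen by that annotation alone. The peaks came from m6A immunoprecipitation of fragmented poly(A) RNA followed by sequencing, compared with the input RNA of the same preparations. The flies were homozygous for Mettl16 1-9, a CRISPR/Cas9 allele with a short frameshift deletion in exon 1 of Mettl16, and the controls were w1118; each of the 3 preparations per genotype pooled about 50 adult males. The mutant is a single allele from a single line, so the allele and the background of its stock cannot be told apart. The peak list pooled the 3 mutant IP libraries against the 3 mutant input libraries, so a peak has no spread between replicates, and the differences between groups of peaks are given as descriptions.

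m6A is a methyl mark on adenosine that a writer complex built around Mettl3 and Mettl14 places on messenger RNA, while METTL16 is a separate methyltransferase known in other animals for modifying U6 snRNA, the spliceosomal RNA that pairs with the 5′ splice site. Poly(A) RNA holds little intron sequence, because introns are removed and degraded soon after transcription. Introns of fly genes also house other transcription units. Transposon insertions, long non-coding RNA genes and the snoRNA genes of ribosomal protein hosts can lie inside them, and their RNA is made or processed on its own.

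The intronic peaks lay almost without exception on such a nested unit. On the same strand, 237 of 238 peaks overlapped an annotated feature with an identifier other than that of the host gene. The peak caller works on annotated exons, so a peak labelled intronic can be placed on an exon of another unit. This count, and the fit of peaks within or up to the ends of features, is therefore largely set by the method. Among peaks of every other annotation, 2.70% overlapped a non-coding feature of another identifier on the same strand, and the share was 5.64% for 5′ UTR peaks and 1.75% for coding exon peaks. A transposon insertion lay under 135 peaks, a long non-coding RNA under 88, an antisense RNA under 7, a snoRNA, scaRNA or sisRNA under 6 and a pseudogene under 1. The peaks fell on 179 distinct features, of which 86 were insertions. In 234 peaks the whole peak was inside the feature. The exceptions were one peak of Pde1c, of which 84.3% lay on asRNA:CR43936, and 2 of the 3 overlapping peaks of Ir40a on the insertion FBti0019250. The feature had a single annotated exon for 207 peaks. For the other 30 it had several, and only its outer ends were known, so a peak there may lie on an exon or an intron of that RNA. Of the 179 features, 1 had a row under its own identifier in the peak list, so the annotation of these peaks as intronic named the host and not the unit beneath them. The single peak with nothing else on its strand was the second of 2 in dpr6, a cell surface protein of the immunoglobulin superfamily (3L:9999831-9999979, 2.66 on the log2 scale as IP over input, FDR 5.62e-06).

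The hosts were long genes, with a median of 38.2 kb, against 2.38 kb for all genes with a peak. The middle of the peaks by position lay 39.4% of the way along the host from its 5′ end (quartiles 23.8% and 57.7%). Chromosome 4 held 15 of the intronic peaks (6.30%), against 357 of all peaks (1.62%), and all 15 were on insertions. It held 4.64% of non-coding RNA exon peaks. Of peaks on insertions, it held 11.1% of the intronic ones and 10.7% of those in the exon annotation of non-coding RNAs. The X held 12.6% of intronic peaks and 17.4% of all peaks. Besides their intronic peaks, 146 of the 157 hosts had peaks of another annotation, 556 in all.

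Enrichment is the log2 ratio of IP over input that the peak caller gave for each peak. The median over intronic peaks was 2.96 (quartiles 2.38 and 3.61, range 0.53 to 7.14). This was above the medians of 5′ UTR peaks (2.85), peaks in exons of non-coding RNAs (2.74), 3′ UTR peaks (2.28) and coding exon peaks (1.26). Peaks on insertions had a median of 3.32 and peaks on long non-coding RNAs one of 2.74. In the exon annotation of non-coding RNAs, where a feature is listed under its own identifier, the 535 rows on insertions had a median of 2.98 and the 877 rows on long non-coding RNAs one of 2.74. The peak caller's FDR was under 0.05 for 189 intronic peaks (79.4%), against 94% of all peaks and 77.1% of non-coding RNA exon peaks. The highest FDR was 0.269. Of the intronic peaks, 25 shared exactly the same enrichment of 2.74, which is 10.5% of them against 2.27% of all peaks and 8.84% of non-coding RNA exon peaks, and 18 of those 25 were on insertions; 17 had an FDR of 0.05 or more. Read counts per peak were not used here, so the depth behind each enrichment is unknown.

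**Figure D1:**
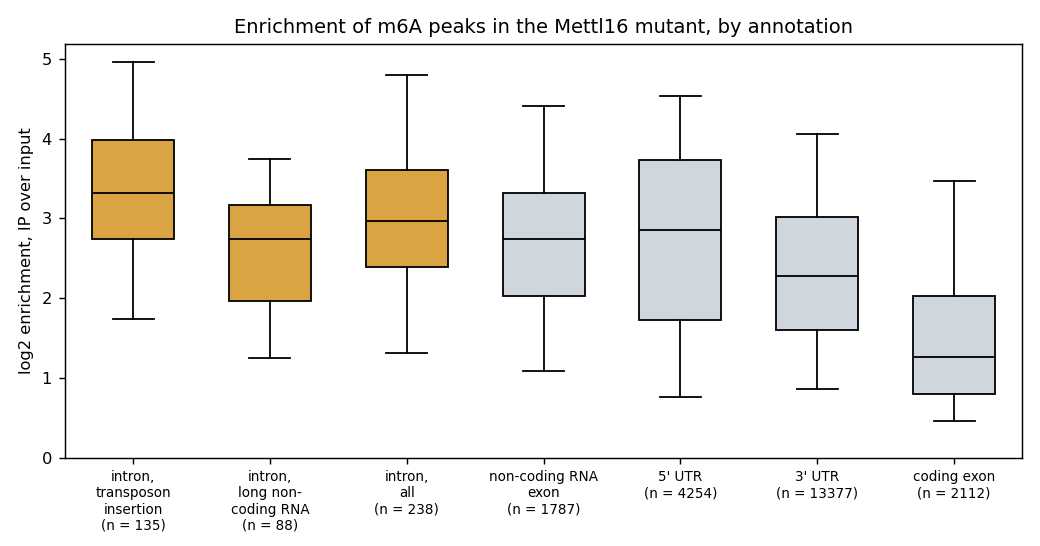
Log2 enrichment of IP over input for m6A peaks of the Mettl16 mutant, by annotation. Boxes give the quartiles and the median, and whiskers the 5th and 95th percentiles. Intronic peaks on transposon insertions have a median of 3.32, against 2.74 for intronic peaks on long non-coding RNAs and 1.26 for coding exon peaks.

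The highest enrichments were on insertions. The first was in mbl, which encodes the splicing regulator Muscleblind. Its peak of 2185 bases (2R:17236564-17238748) began at the 5′ end of the insertion FBti0018969 and reached 7.14 on the log2 scale. It was followed by a 631-base peak in CG17839 on FBti0020112 (3L:14831861-14832491), at 5.88. The adhesion gene kirre had a peak of 5249 bases (X:3075689-3080937) at 5.61 that matched FBti0019551 from end to end. A peak in CG32850 on FBti0020416 had 5.22 (4:327024-328162), and one in plh on FBti0019299 had 5.11 (3R:5002385-5002743). Pka-C3, a catalytic subunit of protein kinase A, had a peak over all 9089 bases of FBti0020121 at 5.01. chinmo, a BTB zinc finger factor of neuronal and germline identity, had one over all 7408 bases of FBti0019106 at 4.96. The only non-coding RNA among the 10 most enriched was lncRNA:CR45994, inside lbk (2R:16153906-16154434), with 4.96. CadN2, a neural cadherin, had 4.83 on FBti0019193 (2L:17820905-17824823), and CG34347 had 4.81 on FBti0019468 (3R:31330491-31333421). The mean mutant input of these features, in FPKM (a read density, defined below), was 7.92 in CadN2, 2.74 in CG17839, 2.72 in CG32850 and 2.41 in CG34347. It was 0.351 in mbl, 0.275 in plh, 0.128 in chinmo, 0.104 in kirre, 0.0503 in lbk and 0.0026 in Pka-C3. An enrichment over input near 0 is uncertain.

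Insertions were often covered from end to end, or by several peaks. In 24 of 135 cases the peak spanned at least 95% of the insertion, and 74 of the 135 shared their insertion with another peak. The 7 peaks of CG43291 all lay on FBti0019375, an insertion of 7441 bases, with enrichments between 1.74 and 4.32. The 6 peaks of Pzl lay on 2 insertions, at 2.34 to 3.96, and the 5 of nAChRalpha4, a subunit of the nicotinic acetylcholine receptor, lay on 3. CG7900, Neto, Stlk, plh and scrib had 4 each on a single insertion. Of the 18 genes with at least 3 intronic peaks, 14 had all of them on insertions and mbl and Glut1 had a part of them there. In IP3K2 all 3 were on a long non-coding RNA, and in Pde1c none was on an insertion.

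Peaks on long non-coding RNAs lay toward the 3′ end. Of the 88, 62 reached the annotated 3′ end of the RNA (70.5%) and 9 the 5′ end (10.2%). The same counts for insertions were 49 (36.3%) and 44 (32.6%) of 135. The centre of a peak lay 78.0% of the way along the RNA at the median, against 50.8% along the insertion. The RNAs were short, with a median of 641 bases, and the insertions had a median of 5249 bases.

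**Figure D2:**
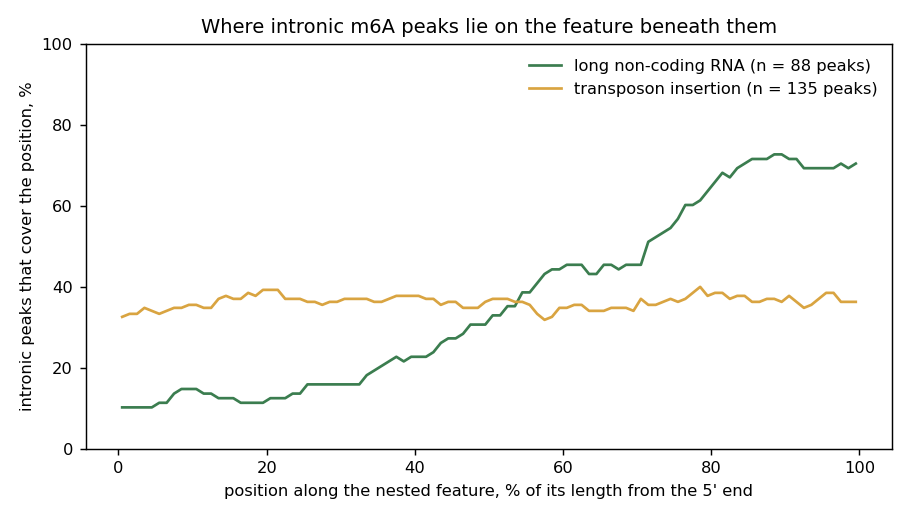
Share of intronic peaks that cover each position along the feature beneath them, in percent of its length from the 5′ end, for 88 peaks on long non-coding RNAs and 135 on transposon insertions. The share on long non-coding RNAs is 14.8% near 10% of the length and 71.6% near 90%, and on insertions it is 35.6% and 37.8% at the same positions.

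**Figure D3:**
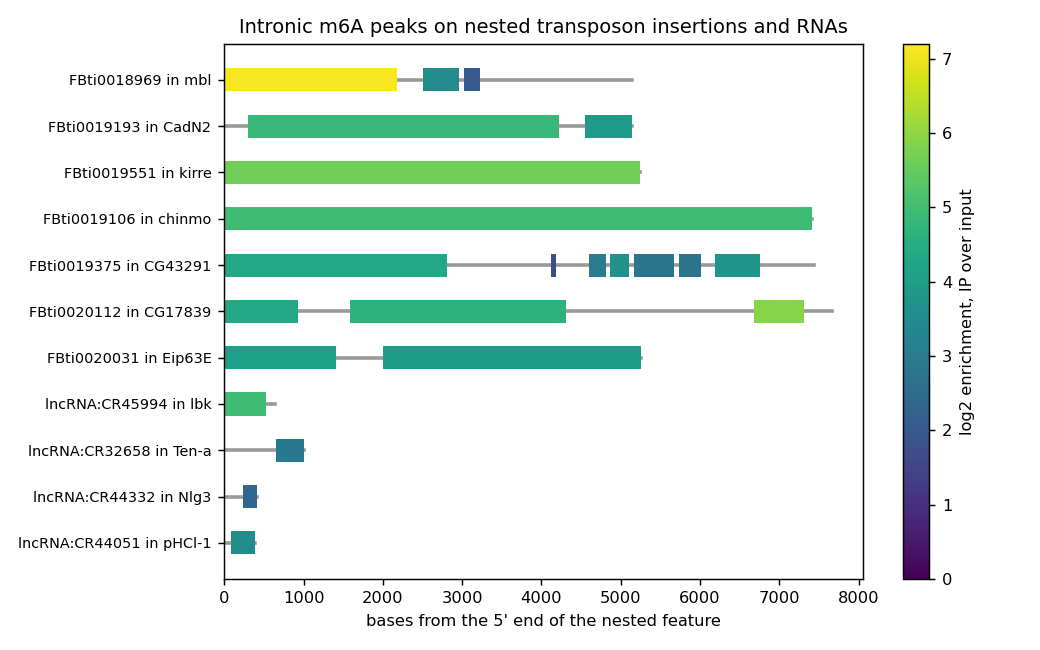
Positions of intronic m6A peaks on 11 nested features, in bases from the 5′ end of the feature. Grey lines are the features and coloured bars the peaks, with colour for the log2 enrichment of IP over input; FBti0019551 and FBti0019106 are covered from end to end, and the peak on lncRNA:CR32658 lies at its 3′ end.

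Peaks on small RNAs included those in RpL3 over all 85 bases of snoRNA:Me18S-C1096 (2.08), RpL23A over snoRNA:Me28S-A2634c (2.96, FDR 0.151), anchor over scaRNA:MeU4-A65 (1.96), RpS27 on sisRNA:CR46364 (1.32) and dpn on sisRNA:4 (3.61). Their input was low. In mutants it averaged 0.210 FPKM for snoRNA:Me18S-C1096, 0.0119 for snoRNA:Me28S-A2634c and 0.763 for scaRNA:MeU4-A65. It averaged 1.23 FPKM for sisRNA:CR46364 and 0 for sisRNA:4, so these enrichments are uncertain. snoRNAs guide methylation or pseudouridylation of ribosomal RNA and are cut out of host introns. A peak in CG32017 was just under an FDR of 0.05 (0.0468), and the peaks just above it were in CYLD (0.055) and SPoCk (0.0794).

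Intronic peaks were also counted on lists of genes of related function. None of the 13 genes of the m6A machinery, of the genes for U6 and 5′ splice site recognition or of the sex determination and dosage genes such as Sxl and tra had one, although 8 of the 10 sex determination and dosage genes had peaks elsewhere. Each of the 24 splicing regulators found in the data had a peak of some annotation, and mbl was the only 1 with intronic peaks, 5 in all. Of 39 neuronal genes, a list chosen for long introns, 7 had one. Of all 12368 genes with a peak, 157 had an intronic one (1.27%), and whether any list differs from this was not tested. In rut, an adenylyl cyclase of learning, it covered all 5146 bases of FBti0019059 (4.01), and in para, the voltage-gated sodium channel, all 5520 bases of FBti0019069 (2.74, FDR 0.269). In pros, a homeodomain factor, it lay on lncRNA:CR46009 (4.74). The teneurin genes Ten-a and Ten-m had peaks on lncRNA:CR32657, lncRNA:CR32658 and lncRNA:CR45962.

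RNA levels came from the input libraries, as FPKM, a read density that is scaled for the length of the RNA and the size of the library. The 6 libraries held 5.32 to 6.48 gigabases of aligned sequence each. CG7544, the gene of Mettl16, had 0.430, 0.285 and 0.232 FPKM in the mutant and 0.971, 0.824 and 1.19 FPKM in w1118, which do not overlap. Its log2 fold change was −0.60 on log2(FPKM + 1), a scale that understates the change of low genes. It passed the minimum mean of 0.5 FPKM only through w1118, so it had to differ. Over all 13866 genes tested with limma on log2(FPKM + 1), 22.9% were higher and 26.7% lower in mutants at an adjusted p under 0.05. Markers of testis were lower in mutants, 5 of 5, with summed FPKM of 346 to 415 in the mutant against 644 to 691 in w1118, as were 4 of 4 of the accessory gland. All 5 photoreceptor markers and 3 of 4 fat body markers were higher. Of the other sets, 0 of 5 neuron markers were called, 1 of 5 flight muscle markers was higher and 1 of 4 midgut markers was lower. In whole flies, fewer cells of a type and less RNA per cell cannot be told apart. Markers of female tissue summed to 7.13 to 11.1 FPKM in mutants and 4.99 to 9.23 FPKM in w1118. Among the 4 of them tested, 1 was higher and 1 lower. Of the 13 genes of the m6A machinery, Mettl16 fell and the reader Ythdf rose (14.95 ± 0.31 and 12.3 ± 0.61 FPKM in mutant and w1118, SD, n = 3 each). Mettl3 had 4.68 ± 0.66 FPKM in the mutant and 5.35 ± 0.43 FPKM in w1118 (SD, n = 3 each, limma adjusted p = 0.198). Of 26 genes of U6 and 5′ splice site recognition, 6 rose (23.1%) and 1 fell (3.85%), beside 22.9% and 26.7% of all genes.

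Among the host genes, 35 rose in mutants and 14 fell. Over all genes tested, 22.9% rose and 26.7% fell. Of 157 hosts, 153 passed the minimum of 0.5 FPKM, so the shares were 22.9% higher and 9.15% lower. The median log2 fold change was 0.08 over the hosts tested and 0.01 over all genes tested. Whether the hosts differ from other genes was not tested.

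The host with the largest increase among those with at least 5 FPKM was uif, an apical membrane protein of tracheal cells, with 15.97, 14.2 and 12.7 FPKM in mutants against 9.29, 7.79 and 8.01 in w1118. Its log2 fold change was 0.71 ± 0.10 (SE, limma adjusted p = 0.000632). The protein kinase gene Hipk followed at 0.65 on the log2 scale. The other named increases were in pan, the TCF factor of Wingless signalling (0.49), Ac13E, an adenylyl cyclase (0.45), Pxn, a peroxidase of the extracellular matrix (0.45), and Tis11, a factor of mRNA decay (0.42). The rule that named them asked for no overlap between the genotypes. The largest decrease was in plh, with 25.0, 29.1 and 28.6 FPKM in mutants against 46.8, 61.4 and 74.4 in w1118 (log2 fold change −1.09 ± 0.15, SE, limma adjusted p = 0.000692). CG7900 (−0.90), the deubiquitinase gene CYLD (−0.45), CG9582 (−0.43), the complex I subunit gene ND-15 (−0.37) and Lasp (−0.33), named by the same rule, also fell.

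Isoform use of the hosts was compared as each isoform's share of its gene's FPKM. Of 479 isoforms tested in 114 host genes, 5 changed by over 5 percentage points at an adjusted p under 0.05 (1.04%), against 3.95% of all isoforms tested. The largest change was in Appl, the fly homologue of the amyloid precursor protein, where FBtr0307294 took 40.8%, 18.7% and 45.3% in mutants and was listed at 0 in all 3 w1118 libraries (limma adjusted p = 0.0179). The isoform FBtr0331241 of the receptor phosphatase gene Lar took 1.31% in mutants and 18.4% in w1118 on average. The others, in IP3K2, Psa and scrib, took 6.49% to 7.75% in mutants and 0.193% to 1.11% in w1118 on average. Without any one of the 6 libraries, between 0 and 2 isoforms were called. Peaks were not matched to exons of host isoforms, because exon positions were not used here.

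The nested features had far lower levels than their hosts, and the feature was above the host in 27 of 179 pairs. The median was 0.681 FPKM for the features and 5.56 FPKM for the hosts. By class the median was 1.14 FPKM for long non-coding RNAs and 0.159 FPKM for insertions. Over all insertions in the table it was 0.0213 FPKM and over all lncRNA genes 0.401 FPKM. Copies of a transposon can be near identical, and the reads of one can be counted to another, so the level of a single insertion is uncertain. Of the 86 insertions with an intronic peak, 26 passed the minimum of 0.5 FPKM, and 65 of the 81 long non-coding RNAs did.

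Among the insertions that passed, 9 rose and 3 fell. Of all 353 insertions tested, 34.8% rose and 15.6% fell. A feature that passed the minimum only through one genotype had to differ, so the counts describe only those that passed. The features also came from peaks called in mutant libraries alone, which can favour those with more RNA in mutants. The largest differences were changes between almost no signal and a clear one, and the features given here were picked after their values were seen. The insertion FBti0019193 in CadN2 had 6.38, 7.72 and 9.65 FPKM in mutants against 0.0475, 0.0828 and 0.0919 in w1118, a 106.9-fold ratio of means. It passed the minimum only through the mutants, so it had to differ. CadN2 itself had 1.42, 1.33 and 1.32 FPKM in mutants and 1.41, 1.15 and 1.28 in w1118. The insertion RR48391_transposable_element, under 5 of the peaks of Pzl, had 11.1, 4.26 and 7.43 FPKM in mutants and 0.231, 0.195 and 0.149 in w1118. This insertion also passed only through the mutants. In the other direction, FBti0019047 in Neto, which encodes a glutamate receptor auxiliary subunit, had 0.653, 0.642 and 0.563 FPKM in mutants and 5.42, 3.45 and 3.54 in w1118. Its peaks had FDR values of 7.76e-09 to 0.269. Some insertions did not separate the genotypes. FBti0019430 in CHKov1 had 19.2, 22.7 and 19.0 FPKM in mutants against 19.5, 19.6 and 19.1 in w1118, beside a peak with an enrichment of 2.74 (3R:25326714-25328538).

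Insertions of 5144 to 5146 bases numbered 7, and the most enriched peak of the list was on one of them. In 6 of the 7, every mutant library lay above every w1118 library, as in 32 of the 86 insertions with an intronic peak and 13.3% of all 3708 insertions in the table. The one in mbl, FBti0018969, had 0.318, 0.335 and 0.400 FPKM in mutants and 0.00622, 0.0106 and 0.0048 in w1118, and the one in rut, FBti0019059, had 0.268, 0.275 and 0.372 in mutants and 0.0253, 0.00454 and 0.0291 in w1118. The insertions in CadN2, CG34347, Tg and sls shared this order. That in CG34347 averaged 2.41 FPKM in mutants and 0.487 in w1118. FBti0019250 in Ir40a overlapped between genotypes, with 3.36, 2.42 and 3.14 FPKM in mutants and 2.62, 2.87 and 2.19 in w1118. The files give no family for these insertions, and how far their reads are shared among copies was not tested. The group was put together after its values were seen. The peaks that chose the 86 insertions, and these 7 among them, were called in mutant libraries alone. An insertion with more RNA in mutants could therefore enter more easily. No such choice was made for the 3708, of which 600 were at 0 in every library, so the shares are not directly comparable.

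Among the long non-coding RNAs that passed the minimum, 11 rose (16.9%) and 26 fell (40%), beside 13.1% and 44.6% of all 817 lncRNA genes tested. The testis and accessory gland markers fell in the same libraries, as given above, and their part in this was not tested. As with the insertions, RNAs that passed only through 1 genotype had to differ. Their peaks were called in mutant libraries alone, so the counts describe only the RNAs that passed. The most abundant were 2 RNAs in Ten-a. lncRNA:CR32658 had 188, 211 and 230.0 FPKM in mutants against 354, 339 and 312 in w1118 (log2 fold change −0.68 ± 0.09, SE, limma adjusted p = 0.000466), and its m6A peak of 358 bases (X:12091915-12092272) had an enrichment of 2.91. lncRNA:CR32657 had 156, 176 and 194 FPKM in mutants and 284, 262 and 227 in w1118, with an enrichment of 1.75. The host Ten-a had 2.06, 2.33 and 2.20 FPKM in mutants and 2.61, 1.83 and 1.94 in w1118. lncRNA:CR44051 in pHCl-1, a chloride channel gene, had 8.66, 10.7 and 9.46 FPKM in mutants and 22.0, 17.9 and 23.7 in w1118, with an enrichment of 3.47. asRNA:CR43936 in Pde1c, a phosphodiesterase gene, had 1.14, 1.31 and 2.58 FPKM in mutants and 6.63, 5.91 and 6.96 in w1118. Among those that rose, lncRNA:CR43684 in Sytbeta was the most abundant, with 69.2, 86.3 and 89.7 FPKM in mutants and 69.0, 67.8 and 59.5 in w1118 (log2 fold change 0.31 ± 0.11, SE, limma adjusted p = 0.0406). Its call was lost under 7 of the alternatives. lncRNA:CR42549 in mura had 11.01, 10.7 and 11.3 FPKM in mutants and 9.49, 7.03 and 8.07 in w1118, and lncRNA:CR43241 in CG42748 had 7.28, 6.63 and 7.40 in mutants and 6.09, 5.12 and 5.49 in w1118. The pseudogene CR43441 in CG9492, outside these counts, rose, with 8.95, 9.41 and 8.96 FPKM in mutants and 3.08, 2.05 and 2.95 in w1118.

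**Figure D4:**
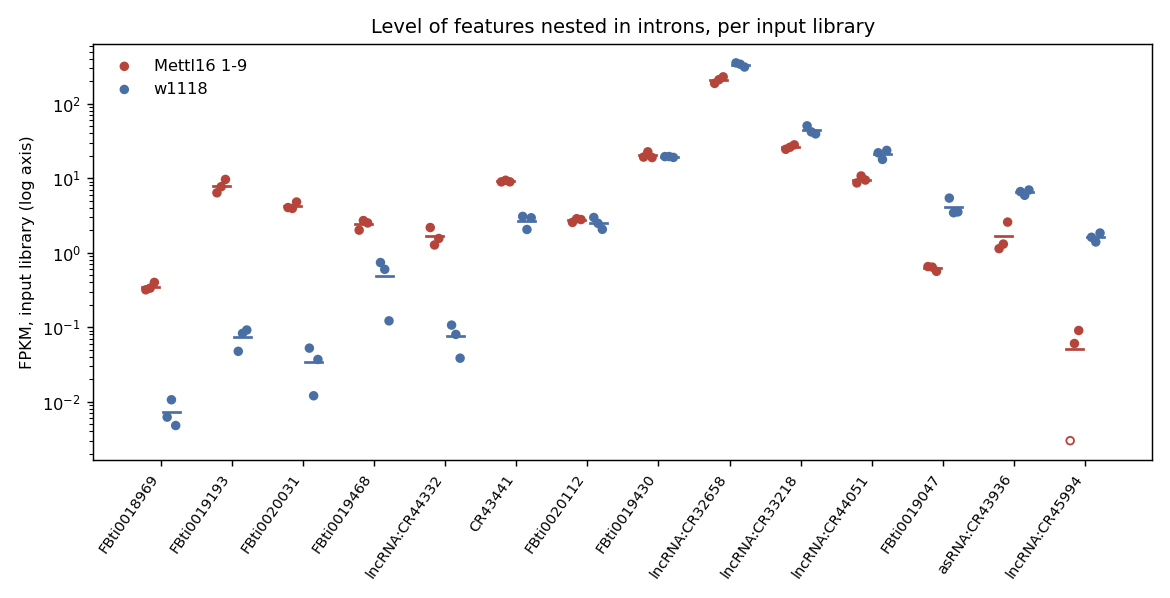
FPKM of 14 features nested in introns in each input library, on a log axis, with Mettl16 1-9 in red left of w1118 in blue. Lines are means and the open circle is a library listed at 0. FBti0019193 averages 7.92 FPKM in mutants and 0.0741 in w1118, while FBti0020112 and FBti0019430 overlap between genotypes.

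Host genes and the features inside them were also compared as pairs. Over the 98 host and feature pairs with both members tested, the log2 fold changes had a Pearson correlation of −0.11 and a Spearman correlation of −0.02, as a description over pairs that share the same 6 libraries. Both members changed in 18 pairs, in the same direction in 8 and in opposite directions in 10. Of the hosts tested 32.0% were called, and of the nested features tested 55%. Features that passed the minimum only through 1 genotype had to differ, so these counts are descriptions. Hipk, at 16.7, 16.5 and 17.0 FPKM in mutants against 12.8, 8.99 and 9.63 in w1118, held lncRNA:CR45808, at 7.37, 9.20 and 8.31 FPKM in mutants against 15.6, 15.6 and 12.3 in w1118. CG7900 fell while FBti0019334 within it rose (log2 fold changes of −0.90 and 0.67). In pan, the host and FBti0019473 both rose (0.49 and 0.84). That insertion passed only through the mutants, with means of 0.931 FPKM in mutants and 0.0760 in w1118.

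**Figure D5:**
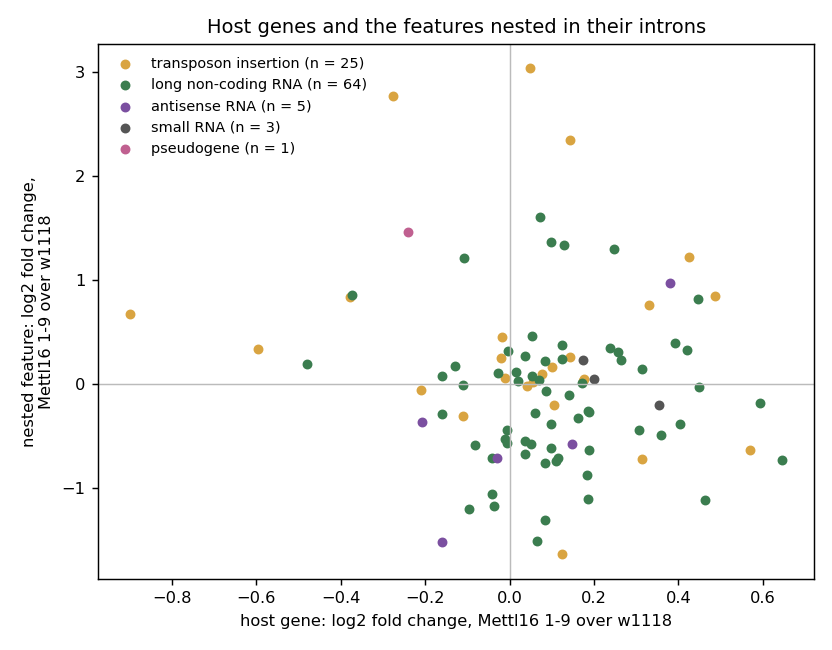
Log2 fold change of nested features (vertical) against that of their host genes (horizontal), Mettl16 1-9 over w1118 on log2(FPKM + 1), for the 98 pairs with both tested. Each point is a pair, coloured by feature class; the points show little common direction (Pearson −0.11).

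The differential peak table compared m6A enrichment between the genotypes and listed peaks with P under 0.05. All 13 intronic rows lay on a nested feature: 4 on insertions, 7 on long non-coding RNAs and 2 on antisense RNAs. Enrichment was lower in mutants in 7 and higher in 6. Past 1 on the log2 scale there were 3 lower and 3 higher, 6 of 13 (46.2%), against 6.02% lower and 4.4% higher over all rows of the table. For non-coding RNA exon rows the share past 1 in either direction was 37.7%. At an FDR under 0.05, 4 of 13 rows passed (30.8%), against 48.6% of all rows. The P and fold changes are those of the authors' peak caller, which pooled the replicates.

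The row with both a large change and a low FDR was in CG34353, on FBti0019444 (3R:27865228-27865408), with a log2 fold change of −1.94 (peak caller's FDR 6.31e-05). The input FPKM of that insertion was 2.62, 2.74 and 2.49 in mutants and 2.71, 2.52 and 1.60 in w1118, which overlap. The row in CG17839, on FBti0020112, was higher in mutants by 2.77 (peak caller's FDR 0.150). Its insertion likewise overlapped in input, with 2.56, 2.87 and 2.79 FPKM in mutants and 2.98, 2.48 and 2.07 in w1118. The row in CG40470 was −3.14 (FDR 0.0575), on RR51093_transposable_element with 1.13, 0.690 and 1.29 FPKM in mutants and 0.582, 0.687 and 0.545 in w1118.

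In the remaining 3 rows past 1, the feature was almost absent from the input of one genotype. In Eip63E, a cyclin-dependent kinase gene, the row was 2.39 higher in mutants (3L:3601473-3602011), and FBti0020031 beneath it had 4.05, 3.94 and 4.80 FPKM in mutants against 0.0525, 0.0120 and 0.0370 in w1118. In lbk the row was 2.44 higher (2R:16153906-16154404, FDR 0.055), and lncRNA:CR45994 was listed at 0 in one mutant library, with 0.0605 and 0.0905 FPKM in the other mutants and 1.61, 1.40 and 1.84 in w1118. In Nlg3, a neuroligin gene, the row was 2.67 lower (3R:7626882-7627144, FDR 0.236), and lncRNA:CR44332 had 2.18, 1.27 and 1.56 FPKM in mutants and 0.107, 0.0802 and 0.0385 in w1118. The part of these input levels in the enrichment differences was not tested.

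The 7 rows under 1 in size were on 5 long non-coding RNAs and 2 antisense RNAs. The one with the lowest FDR was in Pde1c (2L:11840659-11840913), 0.47 higher in mutants on asRNA:CR43936 (FDR 2e-13), a feature whose input level was lower in mutants. In Cpr50Ca the row was 0.66 lower (2R:13784144-13784496, FDR 0.00151), on lncRNA:CR43810 with 8.32, 11.7 and 10.3 FPKM in mutants and 16.7, 12.3 and 13.5 in w1118. In Raf, the kinase of the MAPK pathway, it was 0.42 lower (X:2330506-2330826, FDR 0.0123), on lncRNA:CR33218 with 24.5, 26.1 and 28.1 FPKM in mutants and 50.6, 41.9 and 39.4 in w1118. The rows in wb (−0.93), Mi-2 (−0.35), mura (0.70) and CG13594 (0.82) had FDR values between 0.0977 and 0.246. Of the 13 rows, 10 overlapped an intronic peak of the mutant list in the same gene, and those in CG40470, CG34353 and wb did not.

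Among the 13 host genes of these rows, 12 were tested. CG40470 fell, with 1.78, 1.98 and 2.24 FPKM in mutants and 3.54, 3.50 and 3.54 in w1118, and mura and Nlg3 rose, which is 1 lower (8.33%) and 2 higher (16.7%), beside 26.7% and 22.9% of all genes. With no filter 6 hosts were called, and with centred libraries 5. Without w1118 replicate 2 or without w1118 replicate 3 the calls for mura and Nlg3 were lost and 1 of the 3 remained. Of the 13 features, 3 rose (23.1%) and 5 fell (38.5%), beside 22.9% and 26.7% of all genes. Of all lncRNA genes tested, 13.1% rose and 44.6% fell, and of all insertions tested, 34.8% rose and 15.6% fell. FBti0020031, lncRNA:CR44332 and lncRNA:CR45994 passed the minimum only through the genotype where they were high, so these had to differ. Those that rose were FBti0020031, lncRNA:CR44332 and lncRNA:CR42549, and those that fell were lncRNA:CR45994, lncRNA:CR33218, lncRNA:CR43810, asRNA:CR43936 and asRNA:CR43787. The call of lncRNA:CR43810 was lost without any one of 4 of the 6 libraries.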

How the data were processed

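Stranded MeRIP-seq libraries of poly(A) RNA from 12 samples were used, 3 IP and 3 input libraries per genotype. Per the study's methods, fastp removed adapters, HISAT2 aligned the reads and StringTie gave the deposited FPKM of genes and isoforms, from the input libraries. The deposited signal is the mean coverage per base of each isoform, also from StringTie. Its ratio to FPKM gave the depth. The authors called peaks with exomePeak on pooled replicates and annotated them with ANNOVAR, and their log2 enrichment, log2 fold change, p-value and FDR are used as deposited. Starts were counted from 0 and are given from 1. Gene positions matched release 6 of the genome for 99.9% of 16402 genes. Columns of samples outside these 12 were left out (9 of the gene table, 18 of the isoform table). The authors' own comparisons of genes, which edgeR made, hold fold changes and p-values and were not used.

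Each intronic peak was matched to same-strand features of another identifier in the isoform table, single-exon non-coding ones first. This class was defined after the values were seen. Genes with a mean of 0.5 FPKM or more entered a two-sided limma test with a mean-variance trend, on log2(FPKM + 1), and a Benjamini-Hochberg adjusted p under 0.05 was called (limma 3.58.1, R 4.3.3). On this scale the change of low genes is understated. Isoform shares were arcsine square root transformed and tested alike, for genes with 2 or more isoforms and at least 1 FPKM and mean shares of 0.01 to 0.99. The fits were tested on simulated data. Nothing says that the preparations were separate crosses, so p-values measure the spread between preparations. Named were the 10 most enriched peaks with FDR under 0.05, 1 per gene, the differential rows, listed genes, the 6 hosts with the largest changes each way at 5 FPKM or more with no overlap, called isoforms, peaks beside the FDR threshold and genes with 3 or more peaks. Members, lists and rules were chosen with earlier results of these data known. Alternatives were another pseudocount, filter, centring, thresholds, a replicate block and leaving out each library. A result that needs an item withheld here is not reported.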

Additional observations from a re-analysis of the deposited data

How the results depend on the processing

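Without each library in turn, 37 to 60 hosts were called, against 49, and 50 to 56 nested features, against 55; the hosts of differential rows numbered 1 to 3, against 3, and the isoforms of hosts called 0 to 2, against 5. Of 37 named genes and features called, 32 were called under every alternative run, and none changed direction. The 5 lost under at least 1 alternative were Nlg3, mura, lncRNA:CR43684, lncRNA:CR43810 and lncRNA:CR45030. Many of the 37 were named because they were called, with no overlap and at least 5 FPKM in the higher genotype. Some passed the minimum only through 1 genotype, so 32 of 37 is not a rate of stability. Called hosts of differential rows were 6 with no filter and 5 with centred libraries. Pseudocount, filters and centring were added for the features after seeing the data, and they gave 40 to 70 calls. Called features were 13 at a minimum of 5 FPKM, because fewer were tested. Isoforms called were 2 with a change of share over 10 points. Replicate numbers were shared by the groups, but the deviations of same-numbered libraries had correlations of −0.04, −0.06 and −0.03, so the samples share only a number; with the replicate block 0 isoforms of hosts were called. Why calls were lost or gained elsewhere was not tested. The intronic peaks numbered 238, against 189 at an FDR under 0.05, with a median enrichment of 3.16, and 152 at an FDR under 0.01 and an enrichment of at least 1. Differential rows past 1 on the log2 scale were 1 at an FDR under 0.05, and those past 0.5 were 10, against 6. Shared regions were 8 when at least 0.5 of each region had to overlap, against 10. For nested features, changes of share could not be computed, since a single-exon feature has a single isoform, so their levels were tested in place of shares, and the share settings were not run. Motif shares were not run, since no genome was used here. The read depth behind single peaks is unknown, which limits how far the 49 intronic peaks with an FDR of 0.05 or more can be read.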
